A study of Mus musculus with 7 samples.

Results

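The hexokinases Hk1, Hk2 and Hk3, the regulatory protein Gckr and the gluconeogenic enzymes G6pc, Pck1, Fbp1, Fbp2 and Pcx were examined across 7 mouse tissues. These 9 genes were chosen by name, out of 50226 gene names in the deposited expression table, and all 9 had a value in every tissue. RNA-Seq was performed on rRNA-depleted total RNA with a directional library kit, with 1 library for each of liver, kidney, skeletal muscle, interscapular brown adipose tissue (BAT), visceral adipose tissue (VAT), subcutaneous adipose tissue (SCAT) and cortex. All libraries came from C57BL/6 mice (C57BL/6N in the study's methods) of the wt genotype, aged 36 weeks, on NCD, the lean control diet, so the tissue was the only labelled difference between them. Values are FPKM, fragments scaled for transcript length and library size, and since the deposited table lists no fragment counts, sequencing depth is unknown. Because no tissue was replicated, no p-value, SD or interval could be computed, and every difference between tissues is a difference between 1 library and another. Differences are given on the log2(FPKM + 0.1) scale, which understates the change of low genes, and folds are ratios of FPKM.

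Hexokinases phosphorylate glucose as it enters the cell, which traps it and commits it to glycolysis, glycogen or the pentose phosphate pathway. Gluconeogenesis runs in the other direction: pyruvate carboxylase (Pcx) makes oxaloacetate in mitochondria, phosphoenolpyruvate carboxykinase (Pck1) converts it to phosphoenolpyruvate, fructose-1,6-bisphosphatase (Fbp1 or Fbp2) bypasses the phosphofructokinase step, and glucose-6-phosphatase (G6pc) releases free glucose at the endoplasmic reticulum. The whole route is known from liver and kidney cortex, whereas adipose tissue uses its first steps to make glycerol for triglycerides (glyceroneogenesis) and muscle carries its own fructose-1,6-bisphosphatase, Fbp2.

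The tissue labels were first compared with marker genes. The proximal tubule, brain, brown adipocyte and adipocyte lists were highest in kidney, cortex, BAT and BAT, with summed FPKM of 807, 413, 7384 and 673, and the adipocyte list reached 484 in VAT and 211 in SCAT. The adipocyte sum in BAT was mostly Plin1 (413 FPKM), while Adipoq (330) and Lep (51.6) were highest in VAT. Hepatocyte markers summed to 6051 in liver over the 2 of 3 with a value, because Alb had no usable value there, and muscle markers to 9136 in muscle over 2 of 4. Some libraries also held markers of other tissues. VAT had all 3 epididymal markers at 1 FPKM or more (sum 2639) and all 3 hepatocyte markers (sum 300.3). SCAT had all 3 lymphocyte and all 3 pancreatic markers (sums 89.5 and 80.3). The 3 muscle markers with a value in fat were all at 1 FPKM or more in BAT (sum 286), VAT (55.3) and SCAT (24.8). Muscle had all 3 adipocyte markers (sum 25.2). Liver had all 3 intestinal markers (sum 200.2), mostly from Fabp2 (186). In bulk tissue, fewer cells of a type and less RNA per cell cannot be told apart.

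Enrichment in a tissue was defined by size: an FPKM of 1 or more, and a difference of 2 or more on the log2 scale (4-fold) from each of the other tissues. By this rule 0 of the 9 genes were enriched in any tissue, whereas 23% of the 19122 names with at least 1 FPKM somewhere were. This background was 8.32% in cortex, 3.82% in liver, 3.63% in muscle, 2.67% in SCAT, 2.55% in kidney, 1.24% in VAT and 0.779% in BAT. In each of the 9 genes, the second tissue lay within 4-fold of the first. In 4 of the 9, a pair of tissues stood at least 4-fold above the remaining 5: liver and kidney for G6pc and Fbp1, liver and cortex for Gckr, and muscle and BAT for Hk2. This pairwise rule was chosen after the values had been seen, and 3.26% of all names meet it, 1.09% for liver and kidney, 0.136% for liver and cortex and 0.209% for muscle and BAT. The other 5 genes (Hk1, Hk3, Pck1, Fbp2 and Pcx) had no pair of tissues that stood apart in this way.

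**Figure D1:**
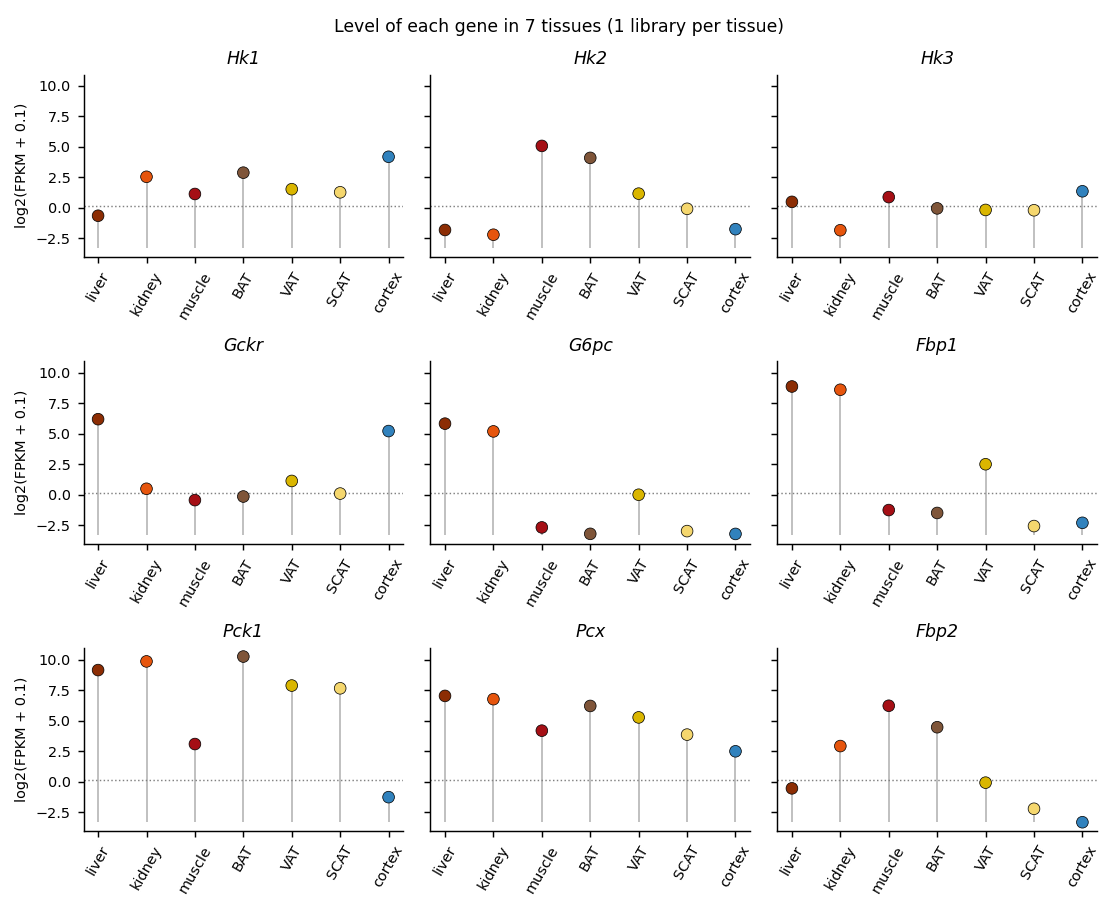
Each panel shows 1 gene as log2(FPKM + 0.1) on the vertical axis in the 7 tissues on the horizontal axis, with 1 point per library, so there is no error bar, and the dotted line marks 1 FPKM. G6pc and Fbp1 stand far above that line in liver and kidney and near or below it elsewhere except for Fbp1 in VAT (5.59 FPKM), whereas Pck1 is lowest in cortex and highest in BAT.

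Hexokinase 1 (Hk1; GRCm38 chr10:62268855-62379908, minus strand), the housekeeping isozyme that binds mitochondria and is the known brain form, was highest in cortex. Its FPKM was 18.2 in cortex, 7.33 in BAT, 5.78 in kidney, 2.81 in VAT, 2.34 in SCAT, 2.11 in muscle and 0.543 in liver. Cortex was thus 2.49-fold above BAT and 33.6-fold above liver, while VAT, SCAT and muscle lay close together. Of the 3 hexokinases, Hk1 was the one with no tissue under 0.5 FPKM. The annotated antisense gene Hk1os overlaps Hk1 by 23112 bases, and its own locus stayed at or below 0.166 FPKM.

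Hexokinase 2 (Hk2; chr6:82725025-82774454, minus strand), the insulin-responsive isozyme of muscle and fat, had the widest range of the 3. Its FPKM was 33.9 in muscle, 17.1 in BAT, 2.16 in VAT, 0.853 in SCAT, 0.200 in cortex, 0.186 in liver and 0.119 in kidney. Muscle and BAT were 1.98-fold apart, BAT was 7.94-fold above VAT, and the 3 tissues at the bottom all lay at or below 0.200 FPKM. The BAT library also held muscle RNA markers, with Ckm at 166 FPKM, or 1.93% of its muscle level, and Mb at 5.97% of it. Hk2 in BAT was at 50.5% of its muscle level and Fbp2 at 29.4%. Mb was as high in VAT (32.1 FPKM) as in BAT (32.5), the third marker, Myh4, had no value in muscle, and the part of muscle RNA in the BAT values was not tested. Gm17034, which overlaps Hk2 by 3007 bases, had 0.931 FPKM in muscle and 0.939 in BAT.

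Hexokinase 3 (Hk3; chr13:55005985-55021385, minus strand), an isozyme known from myeloid cells, was low throughout. It measured 2.48 FPKM in cortex, 1.75 in muscle, 1.32 in liver, 0.877 in BAT, 0.794 in VAT, 0.778 in SCAT and 0.183 in kidney. Neighbouring tissues in this order were at most 1.5-fold apart down to SCAT, and kidney alone stood lower. The summed FPKM of the 4 macrophage markers was highest in SCAT (113), largely from Lyz2 (79.0), and low in both kidney (12.2) and cortex (11.2), where Hk3 was lowest and highest. Of these markers, Cd68 (0.877) and Csf1r (5.48) were lowest in kidney, as Hk3 was, and Adgre1 (1.25) and Lyz2 (1.59) were lowest in cortex. The neutrophil markers summed to 12.02 or less in every tissue, with Ly6g listed at 0 in all. The locus that carried Hk3 extends beyond the gene and spans its neighbour Unc5a, a netrin receptor gene annotated on the other strand, whose locus had 3.36 FPKM in cortex and 2.92 in muscle. Those values are 136% and 166% of the Hk3 values in the same tissues, against 24.7% in liver, and how far they contribute to the Hk3 values was not tested.

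Because FPKM is scaled for length, the 3 hexokinase levels could be added within a library, although the sum covers these 3 genes alone. It was 37.8 FPKM in muscle, 25.3 in BAT, 20.9 in cortex, 6.08 in kidney, 5.76 in VAT, 3.97 in SCAT and 2.04 in liver, the lowest. The isozyme that made up most of the sum differed between tissues. Hk1 was 95.05% of it in kidney and 87.2% in cortex, and Hk2 was 89.8% in muscle and 67.6% in BAT. In VAT, Hk1 (48.8%) and Hk2 (37.4%) were closer, and in SCAT Hk1 was 58.9%. Hk3 made up 64.3% in liver, where all 3 genes were at or below 1.32 FPKM, and 19.6% or less elsewhere.

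**Figure D2:**
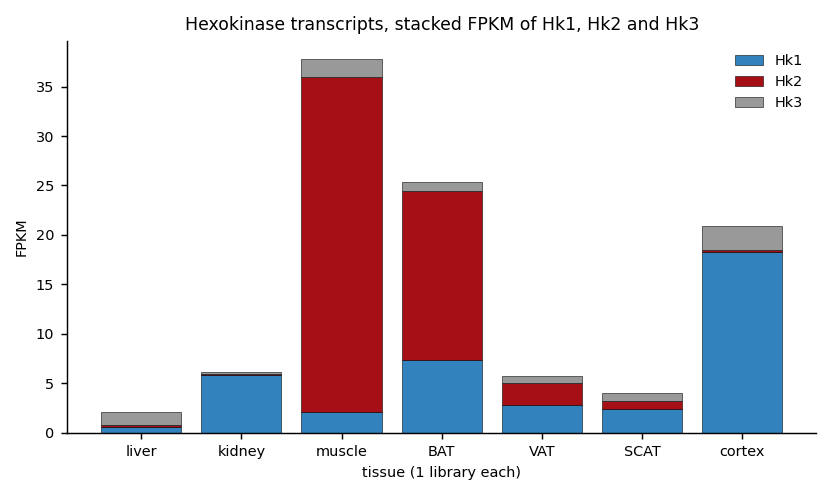
Stacked bars show the FPKM of Hk1, Hk2 and Hk3 added within each of the 7 libraries, on a linear axis that starts at 0. Hk2 fills most of the muscle and BAT bars, Hk1 most of the cortex and kidney bars, and the liver bar is the shortest at 2.04 FPKM.

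Closely similar stretches of paralogs can share reads, so the coding sequences of the 3 hexokinases were compared. The alignments of Hk1 with Hk2, Hk2 with Hk3 and Hk1 with Hk3 were 72.2%, 65.6% and 64.1% identical in nucleotides, with longest identical runs of 27, 23 and 20 bases. Hexokinases 1 to 3 are known as tandem duplications of an ancestral unit, and the first and second parts of each coding sequence, cut in the middle, were 61.9% (Hk1), 67.8% (Hk2) and 66.0% (Hk3) identical. Their coding sequences hold 945, 917 and 922 codons.

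Gckr (chr5:31297443-31327314, plus strand) encodes the inhibitory protein that restrains glucose phosphorylation in hepatocytes and responds to fructose phosphates. Its FPKM was 73.5 in liver and 37.4 in cortex, 2.10 in VAT, 1.31 in kidney, 0.974 in SCAT, 0.809 in BAT and 0.641 in muscle. Liver and cortex were 1.97-fold apart, and cortex was 17.8-fold above VAT. Of the cortex library's hepatocyte markers, Apoa1 measured 0.152 FPKM, or 0.00601% of its liver level, and Alb 1.81 FPKM, while the 3 markers together summed to 197 FPKM, nearly all from the other one. Kidney, which had high levels of G6pc and Fbp1, held 1.78% of the liver level of Gckr.

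The merged locus that carries Gckr begins upstream of the annotated gene and takes in the region of Fndc4, a neighbour on the minus strand that does not overlap Gckr in the annotation. The table also gives Fndc4 separate loci, 1 on each strand. On the plus strand Fndc4 had 12.7 FPKM in cortex and 9.14 in liver. On the minus strand Fndc4 had 28.0 FPKM in cortex and 15.4 in liver, and 0.401 to 1.23 in the other 5 tissues. These values are 74.9% of the Gckr level in cortex and 20.96% in liver. In the other 5 tissues, where both genes were low, the share was 49.6% to 120%. Liver and cortex therefore stood above the rest for both genes, in the opposite order, and how much of the cortex value of Gckr comes from the Fndc4 region was not tested.

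G6pc (chr11:101367561-101377903, plus strand), the catalytic subunit of glucose-6-phosphatase and the last step of glucose release, was high in liver and kidney and below 1 FPKM in the other 5 tissues. It measured 57.0 FPKM in liver, 36.7 in kidney, 0.905 in VAT, 0.0571 in muscle, 0.0273 in SCAT, 0.00900 in BAT and 0.00847 in cortex. Liver was 1.55-fold above kidney, and kidney was 40.5-fold above VAT. In liver the G6pc level was 27.9 times the summed level of Hk1, Hk2 and Hk3, and in kidney 6.03 times. All these values are from the higher of 2 loci, on the strand opposite to the annotation. The locus on the annotated strand, described further on, had 47.3 FPKM in liver and 32.9 in kidney.

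Fbp1 (chr13:62864753-62888282, minus strand), the fructose-1,6-bisphosphatase of liver and kidney, shared the order of the first 4 tissues with G6pc, at a higher level. Its FPKM was 471 in liver, 392 in kidney, 5.59 in VAT, 0.321 in muscle, 0.257 in BAT, 0.104 in cortex and 0.0696 in SCAT. Liver and kidney differed by 1.20-fold, and kidney was 70.1-fold above VAT. Across the 7 tissues the log2 values of Fbp1 and G6pc had a Pearson r of 0.995, a description over 7 libraries that divide into a high pair and a low remainder.

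Fbp2 (chr13:62836877-62858422, minus strand), the muscle paralog, lies beside Fbp1 but was listed at a locus of its own. It measured 74.7 FPKM in muscle, 22.0 in BAT, 7.48 in kidney, 0.847 in VAT, 0.585 in liver and 0.115 in SCAT, and was listed at 0 in cortex. Muscle was 3.4-fold above BAT and BAT 2.94-fold above kidney, and kidney was 8.83-fold above VAT, so muscle, BAT and kidney stood above the other 4 tissues. Fbp2 made up 99.6% of the summed FPKM of both paralogs in muscle and 98.8% in BAT, 62.2% in SCAT, 13.2% in VAT, 1.87% in kidney and 0.124% in liver. The paralogs had nearly exclusive tissues at these extremes, while in SCAT both were at or below 0.115 FPKM. Their coding sequences (338 and 339 codons) were 70.7% identical, with a longest identical run of 23 bases.

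Pck1 (chr2:173153048-173159273, plus strand), the cytosolic phosphoenolpyruvate carboxykinase, had the highest FPKM of the 9 genes in liver, kidney, BAT, VAT and SCAT, but not in muscle or cortex. Its FPKM was 1226 in BAT, 930 in kidney, 568 in liver, 236 in VAT, 202 in SCAT, 8.398 in muscle and 0.316 in cortex. BAT exceeded kidney by 1.32-fold and kidney exceeded liver by 1.64-fold, and the highest and lowest tissues were 3881-fold apart. The muscle library held adipocyte markers, with Adipoq at 14.1 FPKM, and the part of fat RNA in its Pck1 value was not tested. Ranked among protein-coding names with at least 1 FPKM, Pck1 was 13th of 11059 in kidney, 17th of 10741 in BAT, 82nd of 11152 in VAT, 83rd of 10570 in liver and 84th of 10666 in SCAT. The mitochondrial isozyme Pck2 was at or below 3.29 FPKM in every tissue, and the ratio of Pck1 to Pck2 ranged from 0.133 in cortex to 1527 in liver.

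Pcx (chr19:4510472-4621752, plus strand), the mitochondrial pyruvate carboxylase that also refills the citric acid cycle, was detected everywhere at 5 FPKM or more. It measured 131 FPKM in liver, 109 in kidney, 73.9 in BAT, 38.5 in VAT, 18.1 in muscle, 14.4 in SCAT and 5.53 in cortex. Each tissue lay within 4-fold of the next in this order, and liver was 23.7-fold above cortex. The 4 highest tissues of Pcx were also the 4 highest of Pck1, in another order.

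Pairs of tissues were then compared, with a difference of at least 2 on the log2 scale and at least 1 FPKM in either tissue counted as past 4-fold. Between the organs of gluconeogenesis, Gckr and Hk3 were higher in liver (2 of 8 genes, background 9.35% of names) and Hk1 and Fbp2 higher in kidney (2 of 8, background 10.6%). The log2 differences of liver over kidney were 5.71 for Gckr and 2.32 for Hk3, and -3.19 for Hk1 and -3.47 for Fbp2. The Hk3 difference, at 1.32 against 0.183 FPKM, was no longer past 4-fold with a pseudocount of 1 or counted with a minimum of 5 FPKM. G6pc (0.63), Fbp1 (0.27), Pcx (0.27) and Pck1 (-0.71) were all less than 1 apart on this scale. The enzymes of glucose production thus lay close together in both organs, and the genes past 4-fold were the regulatory protein, 2 hexokinases and the muscle paralog.

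Liver and muscle differed in 7 of the 9 genes by this rule. Gckr, G6pc, Pck1, Fbp1 and Pcx were higher in liver (5 of 9, background 14.5%), with log2 differences of 6.63, 8.51, 6.06, 10.1 and 2.85. Hk2 (-6.89) and Fbp2 (-6.77) were higher in muscle (2 of 9, background 15.7%). Hk1 and Hk3 stayed within 4-fold. The median log2 difference of the 9 genes was 2.85, beside -0.15 for all names.

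By this rule the fat depots differed in Pck1, Hk2, Fbp1, Fbp2 and Pcx. BAT exceeded VAT in Hk2 (log2 2.93), Pck1 (2.38) and Fbp2 (4.54), or 3 of 7 genes against a background of 9.92%, while Fbp1 was higher in VAT (-3.99, 1 of 7, background 8.02%). BAT exceeded SCAT in the same 3 and in Pcx, with log2 differences of 4.18, 2.602, 6.69 and 2.35 (4 of 5 genes, background 15.1%), and 0 of 5 were higher in SCAT (background 7.91%). Between both white depots, Fbp1 alone passed, higher in VAT (log2 5.07, 1 of 6, background 6.36%), and 0 of 6 were higher in SCAT (background 5.21%). G6pc (2.98) and Fbp2 (2.14) differed by more than 2 but were under 1 FPKM in both depots. All 9 genes had the higher FPKM in VAT of that pair, by 0.03 for Hk3 to 5.07 on the log2 scale, with a median of 1.24. Over all names the median was 0.15, and 58.1% were higher in VAT. The libraries also differed in overall level: the median log2 ratio of 8881 names to their mean over the tissues was 0.27 in BAT, 0.38 in muscle, -0.42 in VAT and -0.49 in SCAT. After division by this level, Hk2 and Fbp2 remained past 4-fold in BAT over both white depots, whereas Pck1 was at log2 1.69 over VAT and 1.84 over SCAT, and Pcx at 1.59 over SCAT. Hk3 then turned to SCAT over VAT (-0.04), so that 8 of 9 genes were higher in VAT, and G6pc (1.21 FPKM in VAT, log2 3.24) and Fbp2 (1.13 FPKM, log2 2.24) joined Fbp1 past 4-fold.

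BAT and muscle, both rich in Hk2 and Fbp2, were also compared. Pck1 (log2 7.17) and Pcx (2.03) were higher in BAT (2 of 6, background 7.18%), and 0 of 6 were past 4-fold in muscle (background 10.3%), where Hk2 (-0.98) and Fbp2 (-1.76) came closest. Pcx was no longer past 4-fold with a pseudocount of 1. The shared hexokinase and fructose-1,6-bisphosphatase therefore went with a 146-fold difference in Pck1.

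Levels of the liver genes in VAT were set beside Apoa1 and the 7 genes of a list of glucose-handling genes, described further on, that were enriched in liver or high in liver and kidney, a choice made with their values known. Both rules need liver at least 4-fold above VAT, so a low percentage in VAT was fixed in advance for these 7. As a percentage of the liver level, VAT held 1.19% of Fbp1, 1.59% of G6pc and 2.86% of Gckr. Apoa1 was at 0.701%, Gcgr at 1.13%, Hnf4a at 1.17%, the hepatic glucose transporter Slc2a2 at 1.29% and Sds at 1.64%, whereas Khk was at 4.83%, Gpt at 9.90% and Tkfc at 11.6%. Fbp1, G6pc and Gckr, which met the rule for a pair of tissues, lay above the hepatocyte marker Apoa1 and below Khk, Gpt and Tkfc. Gpt also had 18.1% of its liver level in BAT, and Tkfc 8.19% in SCAT. This placement is a description only, because the rules limited the VAT levels on both sides. Pck1 (41.5%) and Pcx (29.4%), both known from white adipose tissue, lay above all the genes just named, but the rules kept the 7 listed genes below such levels. The G6pc value is that of the locus opposite to the annotation. On the annotated strand G6pc had 0.515 FPKM in VAT and 47.3 in liver, a lower percentage. All 3 hepatocyte markers were above 1 FPKM in VAT, and whether Fbp1, G6pc and Gckr there come from liver RNA was not tested.

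**Figure D3:**
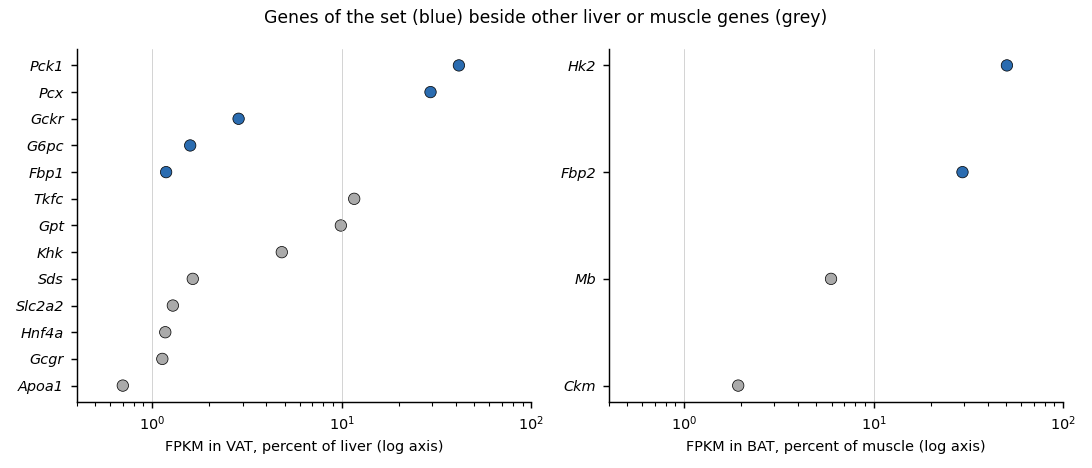
The left panel gives FPKM in VAT as a percentage of FPKM in liver, and the right panel FPKM in BAT as a percentage of FPKM in muscle, both on log axes with 1 library per tissue and no error bars. Blue points are the genes described here and grey points are other liver or muscle genes: Fbp1, G6pc and Gckr lie at 1.19% to 2.86%, within the grey points of that panel (0.701% to 11.6%), and Pck1, Pcx, Hk2 and Fbp2 lie at 29.4% or more. The grey liver genes other than Apoa1 were chosen by rules that need liver at least 4-fold above VAT, so their low percentages were fixed in advance.

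Several of the 9 genes have further loci in the table, on the strand opposite to the one used. The table has no strand column, so strand was read from the order in which loci are listed, and 75.3% of all pairs of a locus and a name then fell on the annotated strand. For Pck1 the opposite locus had 24.1% to 34.8% of the FPKM of the main locus in each of the 7 tissues, with 311 FPKM in BAT and 0.110 in cortex. For Fbp1 the larger of 2 opposite loci had 42.4 FPKM in liver and 33.8 in kidney, and 7.97% to 13.7% of the main locus in all 7. The opposite signal of both genes therefore kept a similar ratio across ranges of 3881-fold and 6776-fold in level.

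G6pc was the exception in that its higher locus lay on the strand opposite to the annotation. The locus on the annotated plus strand had 47.3 FPKM in liver and 32.9 in kidney, or 83.0% and 89.7% of the values used. It had 0.515 FPKM in VAT, 0.0225 in muscle and 0.0169 in SCAT, and was listed at 0 in BAT and cortex, so the order of liver, kidney and VAT was the same on both strands. The Fbp2 name had further loci of 34.7 and 34.8 FPKM in muscle on the opposite strand, 46.4% and 46.5% of the value used. Opposite Pcx, a minus-strand locus that carries the names Gm960, Lrfn4 and Rce1 had 76.1 FPKM in liver and 4.73 in cortex, or 55.2% to 85.5% of the Pcx value in the 7 tissues. Lrfn4 overlaps Pcx by 3883 bases in the annotation. The merged Pcx locus also spans other genes of its strand with loci of their own. How reads were assigned to strands was not tested.

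**Figure D4:**
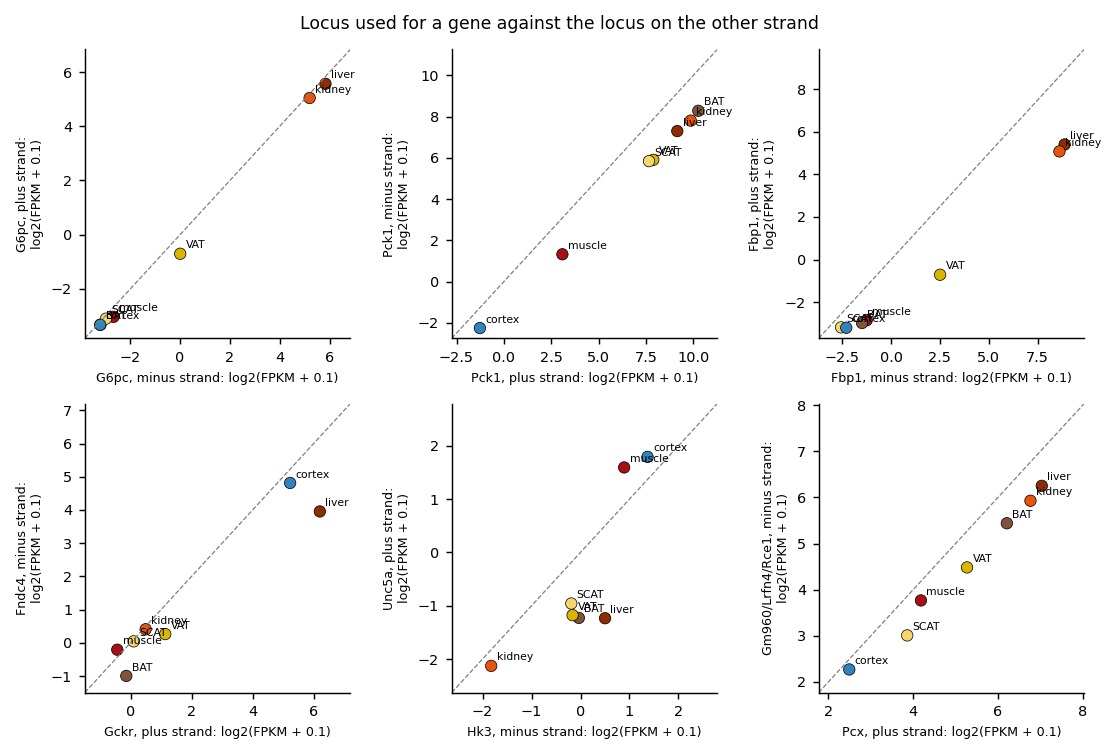
Each panel plots, on log2(FPKM + 0.1) scales, the locus used for a gene (horizontal) against a locus on the other strand (vertical), with 1 point per tissue and a dashed line where both are equal. The point for liver is highest on both axes for G6pc, Fbp1 and Pcx, and that for BAT for Pck1, while liver is highest for Gckr but cortex for Fndc4, and cortex for both Hk3 and Unc5a.

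Promoter sequence was searched for 7 short motifs known from hepatic and glucose-responsive genes, on both strands, in RefSeq windows of 250 bases before to 50 bases after each annotated start in GRCm38.p6. All 9 genes matched, with 11 windows because Hk1 and Pcx have 2 each. TTACGTCA, the cAMP response element variant known from Pck1, was in the Pck1 window at -93 to -86 from the start, and in 0.499% of all 32851 windows. TATAAA was in the G6pc window at -29 to -24 (13.6% of windows). CACGTG, the E-box, was in the Fbp2 window at -42 to -37 and in 1 of the Pcx windows at -248 to -243 (7.15%). The palindromic TGACGTCA (1.79%), the HNF1 motif (0.00913%), CAAAGTCCA (0.475%) and the forkhead core TGTTTAC (3.65%) had no exact match in the 11 windows, which says only that these letters are not there. The 3 stretches printed here are those with a motif within 100 bases of the start, from genes that were highest in BAT (Pck1), liver (G6pc) and muscle (Fbp2). Positions count from the RefSeq start, which for G6pc lies 155 bases downstream of the GENCODE start, so that its stretch falls inside the gene's span given earlier. Capitals mark the motif, and each is written 5′ to 3′ on the strand of its gene, at chr2:173152973-173153047 (plus strand), chr11:101367675-101367704 (plus strand) and chr13:62858423-62858500 (minus strand).
Pck1: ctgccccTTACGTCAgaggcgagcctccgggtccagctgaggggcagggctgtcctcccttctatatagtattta
G6pc: gaatccagggcaTATAAAacaggggcaagg
Fbp2: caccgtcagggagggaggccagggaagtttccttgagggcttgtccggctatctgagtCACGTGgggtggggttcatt

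A list of 34 other genes of glucose handling was read the same way. Liver was the highest tissue for 8 of them, muscle and BAT for 8 each, kidney for 6, cortex for 2 and VAT and SCAT for 1 each. The same count was not made over all names, and the libraries differ in overall level. These counts are therefore not read as a trait of the list. Of the 34, 6 were enriched in 1 tissue: 3 in liver (background 3.82%), 2 in muscle (background 3.63%) and 1 in BAT (background 0.779%), and 0 in the other 4. The liver genes were Gpt (89.97 FPKM), alanine aminotransferase, Sds (60.2 FPKM), serine dehydratase, and Gcgr (87.0 FPKM), the glucagon receptor. Their log2 values lay 2.46, 5.51 and 4.16 above the next tissue. The muscle genes were Pfkfb4 (13.95 FPKM), which sets fructose 2,6-bisphosphate, and the CREB coactivator Crtc2 (23.1 FPKM), whose locus also carries the name Dennd4b. Crtc2 was no longer enriched with a pseudocount of 1 or after median-ratio scaling, each of which left 1 listed gene in muscle. In BAT it was Gpd1 (865 FPKM), the glycerol-3-phosphate dehydrogenase that feeds triglyceride synthesis.

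The liver and kidney pattern of G6pc and Fbp1 was met by 4 of the 34 listed genes, beside 1.09% of all names. Slc2a2 (100.3 and 48.9 FPKM in liver and kidney), Tkfc (46.2 and 80.5), Khk (30.9 and 39.9) and the transcription factor Hnf4a (206.5 and 158.5) were at least 4-fold above the remaining 5 tissues in both. The list's other gene high in a pair of tissues was Gpt2, in liver and muscle (154 and 166 FPKM). Cytosolic malate dehydrogenase Mdh1 (286 FPKM) and Hnf4a (206.5 FPKM) were the 2 genes of the list with the highest liver FPKM. The transporter that brings glucose 6-phosphate to G6pc, Slc37a4, had 37.0 FPKM in liver, 46.7 in kidney and 46.2 in muscle, and thus was not low in muscle, where G6pc was. The G6pc paralog G6pc2 reached 0.309 FPKM in liver, its highest tissue, and G6pc3 27.8 FPKM in muscle.

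Beside Pck1, the pyruvate carrier subunits Mpc1 (683 FPKM) and Mpc2 (432 FPKM) were also highest in BAT, as was Pfkfb3 (158 FPKM), a kinase that raises fructose 2,6-bisphosphate. Of the regulators known to act on G6pc and Pck1, Foxo1 was at or below 0.350 FPKM in every tissue. Ppargc1a was highest in kidney (7.37 FPKM). Other listed regulators had more in liver: Klf15 was highest there (13.6 FPKM, with 4.45 in muscle, the next tissue). Nr3c1 had 12.8 FPKM in liver and 16.4 in BAT, its highest tissue, and Creb1 had 5.28 FPKM or more in every tissue. Of the 11 listed hormone receptors and transcription regulators, 4 were highest in liver, 3 in BAT, 2 in kidney and 1 each in muscle and SCAT. Hkdc1, a further hexokinase-like gene, reached 1.13 FPKM in cortex and 0.335 FPKM or less in the other 6 tissues.

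**Figure D5:**
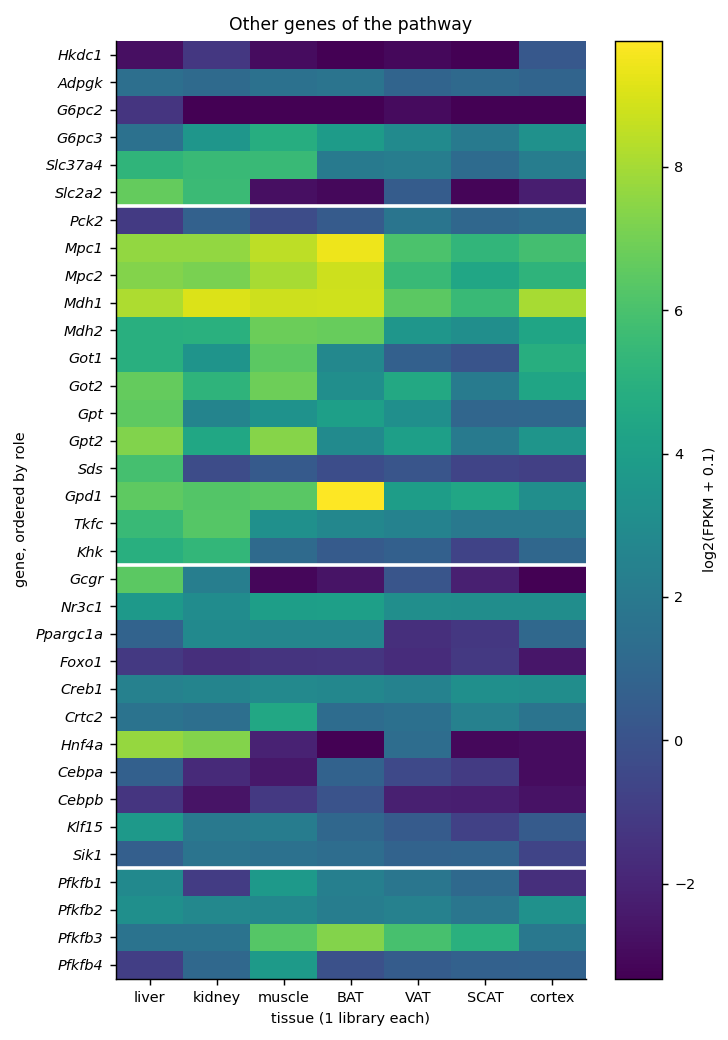
Colour gives log2(FPKM + 0.1) of the 34 other genes (rows, ordered by role and divided by white lines) in the 7 libraries (columns). Gpd1 and Mpc1 are brightest in BAT at 865 and 683 FPKM, and Hnf4a is bright in liver and kidney at 206.5 and 158.5 FPKM and dark in muscle, BAT, SCAT and cortex.

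The names whose log2 values across the 7 tissues were most like each gene were found by Pearson r among 19086 names. With 7 points, many names reach a high r: 194 had an r of at least 0.95 with G6pc and 166 with Fbp1. Among the 3 most alike to both were Ugt2b38 and Ugt2b5, which share a locus (r 0.998 with G6pc and 0.996 with Fbp1). For Hk2 they were Rgs5 (0.989), Ucp3 (0.988) and Gm10603 (0.982), and for Hk1 Zfp248 (0.976), Gm42884 (0.973) and Aph1b (0.970). For Hk3 they were Gm22005 (0.992), Xk (0.962) and Ackr1 (0.942). Gckr was closest to AC153547.1 (0.994), Slc30a10 (0.989) and Gm13872 (0.983). Pck1 was closest to Fcgrt (0.988), Syde1 (0.987) and Irak4 (0.980), and Fbp2 to Gm14232 (0.983), Lage3 (0.977) and Dnajc4 (0.975). For Pcx the closest 3 names, Gm960, Lrfn4 and Rce1 (0.994), were those of the locus on its other strand. Among the 9 genes themselves, the highest r after Fbp1 with G6pc was 0.868, for Pck1 with Pcx, and the lowest was -0.74, for Hk3 with Pck1.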

How the data were processed

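Gene-level FPKM of 7 tissues were analysed, with 1 library each. The authors deposited FPKM (fragments scaled for transcript length and library size) from Cuffdiff as 1 table of 94339 loci in 21 pairwise comparisons, and the FPKM of a tissue did not vary between its 6 comparisons. According to the methods and the submitters' processing notes, adapters were removed with flexbar, rRNA reads with Bowtie2 2.2.9, the rest aligned to mm10 (GRCm38) with STAR 2.6.0c, and transcripts assembled and merged with Cufflinks 2.2.1. The library kit was directional, but the library-type and scaling settings given to Cufflinks and Cuffdiff are not given in the sources used here. Merged loci can cover neighbouring genes and both strands, and the effect on the values was not tested. The columns of the authors' own comparisons (log2 fold change, test statistic, p and q values, call) were not used.

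Names in the gene column were split on commas, and a name with several loci took the locus with the highest FPKM in any tissue. The 151 loci with the status FAIL were dropped, and 225 zeros with the status LOWDATA were set to missing. Strand was read from locus order, since loci of each chromosome are listed in ascending runs. Depth and precision are unknown: the lowest FPKM values gave no common step from which counts could be recovered. With 1 library per tissue no test was run. Calls follow rules of size on log2(FPKM + 0.1), with at least 1 FPKM. The code for these rules was tested on simulated data, which says nothing of the error of a call here. Named are the 9 genes, listed genes that met the enrichment rule and the 2 highest in liver, the 3 names most alike by Pearson r, and marker genes. Other names were chosen after their values were seen. Not every one is printed, and some items, left out of the lists, are not reported here. The genes, lists and rules were chosen with earlier results of these data known. Gene positions are from GENCODE (GRCm38), promoters from RefSeq (GRCm38.p6). Proteins were not analysed here, and GENCODE coding sequences were compared instead by global alignment. Alternatives covered the pseudocount, scaling, loci, strand, failed and zero values, minimum FPKM and fold. The work was done in Python 3.11.15 with SciPy 1.17.1, NumPy 2.4.6, matplotlib 3.10.9 and pandas 2.3.3.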

Additional observations from a re-analysis of the deposited data

How the results depend on the processing

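With 1 library per tissue and unknown depth, no value has an error, and differences near the rules' limits cannot be ranked. No paired analysis was possible because the labels give no replicate of any tissue. Of 297 counts under the alternatives, 273 stayed within 1.5 times the reported ones, which includes counts that were 0 both times. For the 9 genes, enrichment in a tissue was 0 as reported and in 75 of 77 alternatives. Keeping failed loci, keeping the zeros set to missing or using the annotated strand alone changed none of the counts, so the ratio overstates how stable they are. The log2 ratio of each of the 9 genes' highest tissue over the next kept its tissue order and stayed under 4-fold in 63 of 63 cases (0.17 to 1.84). Of 112 isozyme shares, 109 stayed within 1.5 times the reported ones, but most of them could not change. Hk1, Hk2 and Hk3 have 1 locus each, so their shares were the same under every alternative. Only the Fbp2 shares with summed loci changed. With the FPKM of all loci summed, Fbp2 was 0.200% of Fbp1 and Fbp2 in liver, 2.87% in kidney and 9.13% in cortex. For the counts that moved, the cause was not tested. When 1 FPKM was the pseudocount, genes past 4-fold numbered 1 for liver over kidney and 1 for BAT over muscle, and 1 gene of the list was enriched in muscle. With median-ratio scaling they numbered 2 for VAT over BAT, 2 for BAT over SCAT and 3 for VAT over SCAT, and 1 of the list was enriched in muscle. Summed loci gave 2 for VAT over BAT and 3 for VAT over SCAT, as did no minimum FPKM (2 and 3). A minimum of 5 FPKM gave 1 for liver over kidney. At 2-fold, 1 of the 9 genes was enriched in muscle (Fbp2) and 1 in cortex (Hk1), 5 of the list in liver and 1 in cortex, and 2 genes passed for VAT over BAT, 4 for VAT over SCAT and 1 for muscle over BAT. At 8-fold, 0 of the list were enriched in muscle, and 1 gene passed for liver over kidney, 1 for BAT over VAT, 2 for BAT over SCAT and 1 for BAT over muscle. Of the 27 names most alike, 11 stayed among the 3 with a pseudocount of 1, and 19 had a Spearman rho of at least 0.9. The rule for a pair of tissues was chosen after seeing the data.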
